A study of Homo sapiens with 12 samples.

Results

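The nonsense-mediated decay (NMD) transcripts of protein-coding genes were described in 3 ovarian cell lines by total RNA sequencing. They were all transcripts with the GENCODE type nonsense_mediated_decay in a gene of type protein_coding, which made 19750 of the 244939 transcripts listed for each library, in 7647 genes. Each was measured as its share in the summed TPM (a measure of abundance per length of transcript, scaled to the library) of its own gene. Shares were taken where that sum was at least 1 in all 12 libraries, which left 11822 NMD transcripts in 3902 genes. T1074 is an immortalized ovarian epithelial line carrying SV-40, while PEO-4 is labelled an ovarian cystadenocarcinoma line and SKOV-3 an ovarian serous cystadenocarcinoma line, both grown out of ascites. All 12 libraries are labelled WT, with no treatment named, and each line has 4. The lines grew in different media, Prigrow I for T1074, RPMI 1640 for PEO-4 and McCoy's 5A for SKOV-3, so line and medium cannot be told apart. Each line is 1 model. Nothing says whether the 4 replicates of a line came from separate cultures, so the p-values cover only the spread among the libraries at hand, which may be technical.

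NMD is the cellular pathway that degrades messenger RNAs on which translation stops too early. In mammalian cells a stop codon is usually read as early when an exon junction lies well downstream of it, because the exon junction complex left there by splicing is still on the RNA when the ribosome halts, and UPF1, its partners and the SMG proteins then start decay. Many splicing regulators use the pathway on their own transcripts, through exons that carry a stop codon, often called poison exons. The annotation type rests on transcript structure, and decay itself was not measured in these libraries. In such bulk libraries, a change in every cell and a change in some of the cells cannot be told apart, nor can less synthesis and more decay of a transcript.

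Where the stop codon lies sets the members apart. Of the 19750, 19399 had an annotated stop codon and a structure of the same version in GENCODE 44, and in 19373 of these (99.9%) the last exon junction lay more than 50 bases beyond the stop codon. The median distance was 374 bases, with 3 junctions after the stop codon. A position against the main transcript of the gene could be given for 19070, while 329 with a stop codon had none. Of the 19070, the stop codon lay in an exon that the main transcript also has in 9914 (52.0%), in an exon that shares no base with it in 5946 (31.2%), in a longer form of one of its exons in 2259 (11.8%), and at the main stop codon itself, with extra splicing after it, in 951 (4.99%). The coding start was marked as not found in 4722. The annotation's transcript support level was 1, the best grade, in 2833 of the 19750 and in 731 of the 4079 tested for share below. Among transcripts named below, HNRNPU-228, HNRNPA2B1-203, CYTH2-202, ACTR10-202, C8orf82-205 and NAPA-207 are at level 5, the lowest. Members in genes past the TPM limit had a median length of 1367 bases, against 1549 bases for protein-coding and 824 bases for retained-intron transcripts of the same genes, and 42.4% of them were shorter than 1000 bases.

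The stop codons of 11 members are shown because the results below turn on these transcripts and because they give each of the 4 positions. Capitals mark the stop codon, with 12 transcript bases on either side, read from GENCODE 44 on GRCh38 in the direction of the RNA. In the first 4 the stop codon lies in an exon that the main transcript lacks.
TRA2B-205: ctcaggaataagTGAagctgaaatttg
HNRNPU-228: aaagggcccaacTAAatgttccagtga
SAT1-208: ggttacagtctcTAGcttcgccatgta
DCP2-202: tttctaagaagtTGAcatttgttgctg
The TRA2B exon is 276 bases long with its stop codon at chr3:185931772-185931774 on the minus strand, and the HNRNPU exon 69 bases with its stop codon at chr1:244848809-244848811 on the minus strand. The SAT1 exon is 110 bases with its stop codon at chrX:23784305-23784307 and the DCP2 exon 68 bases with its stop codon at chr5:112993151-112993153, both on the plus strand. The next has its stop codon in a lengthened exon of 1127 bases, at chr2:38749516-38749518 on the minus strand.
SRSF7-208: aggtatttatttTAAtaaaggaatggt
The next 3 end at the main stop codon and are spliced again after it.
HNRNPA2B1-203: aggagccgatacTGAgcttcttcctat
HNRNPDL-202: taccagccatacTAAaggagaacattg
ERCC2-214: gctcagcagctcTGAgtggggcgggtg
These lie at chr7:26192516-26192518, chr4:82426059-82426061 and chr19:45351629-45351631, all on the minus strand, with 2, 2 and 1 junctions beyond them and the last junction 157, 127 and 161 bases away. The last 3 stop within an exon of the main transcript.
CLK1-204: ttgttgatacttTAGgtgaaggagctt
DGUOK-203: ggagcccttcccTGAgaaactcttaca
NEPRO-211: gcggcccttggtTGAgcaatgtttaaa
Their stop codons lie at chr2:200859726-200859728 (minus strand), chr2:73946844-73946846 (plus strand) and chr3:113014028-113014030 (minus strand), with the last junction 809, 160 and 973 bases beyond. TRA2B-205 was chosen after its values were seen. The others come from the rule for named transcripts.

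NMD transcripts made up a small and similar part of the RNA of these genes in the 3 lines. Over the 7565 protein-coding genes past the TPM limit, they held 3.61, 3.63, 3.87 and 3.36% of the TPM for T1074, 3.48, 3.43, 3.60 and 3.47% for PEO-4 and 3.82, 3.88, 3.97 and 4.0% for SKOV-3. All SKOV-3 libraries lay above all PEO-4 libraries, while T1074 overlapped both. The means were 3.62% ± 0.210 (SD, n = 4), 3.50% ± 0.0739 and 3.92% ± 0.0842. The difference of PEO-4 from SKOV-3 was -0.421 percentage points (exact two-sided permutation test, p = 0.0286, the smallest that 4 against 4 libraries allow, and 0.0643 after adjustment over 9 tests). SKOV-3 lay 0.299 points above T1074 (exact permutation p = 0.0571, adjusted 0.0857) and the difference of PEO-4 from T1074 was -0.122 points (exact permutation p = 0.314, adjusted 0.354), so no pair passed the adjusted threshold of 0.05. The sign of the difference between PEO-4 and T1074 turned when the ribosomal protein genes were left out (0.0111 points) or when genes needed a TPM of at least 5 (0.0897 points). Without transcripts shorter than 1000 bases, the difference of SKOV-3 from T1074 was -0.0308 points. Retained-intron transcripts moved in another order, at 5.07% ± 0.215 for T1074, 6.10% ± 0.235 for PEO-4 and 4.62% ± 0.197 for SKOV-3.

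**Figure D1:**
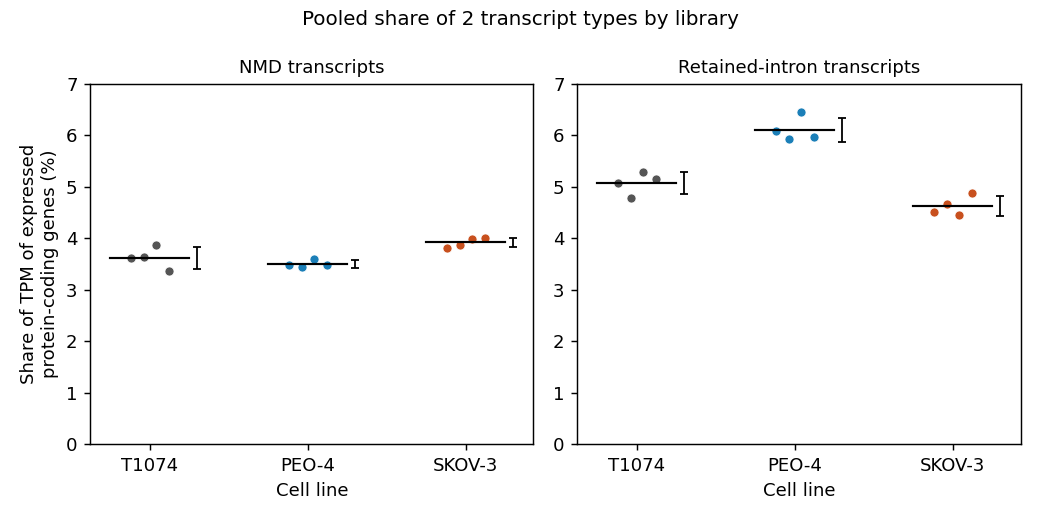
Share of NMD and of retained-intron transcripts in the TPM of 7565 protein-coding genes (%), 1 point per library, with the mean (line) and SD (bar) of 4 libraries per cell line. The NMD share lies between 3.36 and 4.0% in all 12 libraries, and the PEO-4 mean is lowest for NMD and highest for retained introns.

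A few short ribosomal protein transcripts carried part of this sum. RPS3-218, a 737-base transcript of the small-subunit protein gene RPS3, held 3.18% ± 0.849 of all NMD TPM for T1074, 9.0% ± 0.973 for PEO-4 and 3.73% ± 0.106 for SKOV-3. RPS3-216 held 2.19% ± 0.560, 6.38% ± 0.491 and 2.55% ± 0.212, and RPL37A-202, of the large subunit, 3.06% ± 0.830, 5.34% ± 0.507 and 2.78% ± 0.368. In SKOV-3, 2 transcripts of FTH1, the ferritin heavy chain, were among the 5 highest, FTH1-210 with 2.69% ± 0.496 and FTH1-208 with 1.97% ± 0.398. These genes have many processed copies in the genome that can share their reads, so their values are uncertain. Members under 1000 bases held 44.5% ± 1.67 of the NMD TPM for T1074, 54.9% ± 1.71 for PEO-4 and 50.3% ± 0.345 for SKOV-3. Within the same genes, short protein-coding transcripts held 46.3% ± 3.21, 53.9% ± 1.27 and 47.6% ± 1.73 of the protein-coding TPM. The part of transcript length in the NMD sum was not tested beyond leaving the short transcripts out.

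Most single members were close to absent. In T1074, 6799 of the 11822 had a mean share under 1% of their gene, 3825 lay from 1 to 10%, 1139 from 10 to 50% and 59 at 50% or more. PEO-4 had 6921, 3725, 1118 and 58, and SKOV-3 7195, 3377, 1173 and 77 in these ranges. In all, 1297 were at 0 in every library. Summed by gene, the median NMD share was 3.95 to 4.83% over the 12 libraries, and 124 to 136 genes for T1074, 131 to 139 for PEO-4 and 151 to 170 for SKOV-3 gave over 50% of their TPM to NMD transcripts. The 4 SKOV-3 libraries did not overlap the other 8 in this count. A gene had a median of 2 NMD transcripts, 1556 of the 3902 had 1 and 637 had 5 or more. Near the TPM limit, 126 genes with members had a lowest TPM sum from 1 to 1.1 and were kept, with a median mean sum of 3.00, and 134 lay from 0.9 to 0.99 and were left out, with a median of 2.57.

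Shares of single members changed between the lines in both directions. For the test, 4079 members in 2561 genes were left after asking for a mean share of at least 1% and a mean expected count of at least 10 over the 12 libraries, among 37185 transcripts of all types. Against T1074, 344 rose in PEO-4 (8.43%, where 12.4% of all transcripts tested did) and 318 fell (7.80% against 10.3%), called at an adjusted p under 0.05 by limma. In SKOV-3 against T1074, 305 rose (7.48% against 8.80%) and 292 fell (7.16% against 10.8%). Between the carcinoma lines, 429 were higher in PEO-4 (10.5% against 17.0%) and 399 lower (9.78% against 11.4%). In each pair and direction the called share of the members lay below that of all transcripts. Among these calls, differences of at least 10 points numbered 85 up and 59 down in PEO-4 and 95 up and 45 down in SKOV-3 against T1074, and 56 up and 103 down in PEO-4 against SKOV-3. On a log2 ratio scale the calls were 749 up and 270 down, 530 up and 302 down, and 549 up and 366 down in these pairs. The balance of the directions among the members thus depended on the scale. The median difference over all 4079 was -0.00444 points for PEO-4 and 0.0114 points for SKOV-3 against T1074, and -0.0646 points between the carcinoma lines, beside 0.189, -0.182 and 0.281 points over all transcripts tested. These medians describe the sets and were not tested. A test of transcript use on the counts (edgeR's diffSpliceDGE) called fewer members, 91 to 144 higher and 100 to 114 lower in a pair. For the limit of 10 points, the log2 ratio scale and this test, the called share of all transcripts was not computed. Whether the balance there is particular to the members was therefore not tested.

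The position of the stop codon went with how often a difference was called. In at least 1 pair, 1347 of 4079 members were called (33.0%), against 42.9% of all transcripts tested, 9910 of 23188 protein-coding (42.7%) and 3247 of 6523 retained-intron transcripts (49.8%). Among members, 648 of 2297 with the stop codon in an exon of the main transcript were called (28.2%), 390 of 984 with a separate exon (39.6%), 175 of 505 with a lengthened exon (34.7%) and 92 of 197 that keep the main stop codon (46.7%). The last also had the highest median share, 8.05% for T1074, 6.85% for PEO-4 and 7.85% for SKOV-3, against 4.28, 3.93 and 4.11% for those with a separate exon. The part of level in these percentages was not tested. In all, 48 members were called in all 3 pairs (1.18%), against 892 of all transcripts tested (2.40%).

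**Figure D2:**
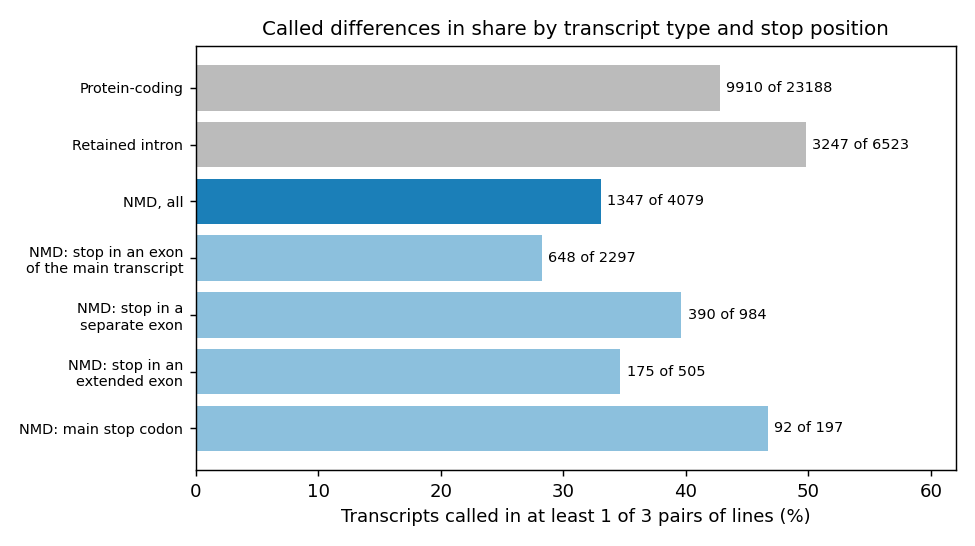
Percent of tested transcripts whose share was called different in at least 1 of 3 pairs of lines, with the counts beside each bar, for protein-coding and retained-intron transcripts (grey), all NMD transcripts (dark blue) and NMD transcripts by the position of the stop codon (light blue). It runs from 28.2% for NMD transcripts that stop in an exon of the main transcript to 49.8% for retained-intron transcripts.

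Called shares went with the level of the transcript more often than with the level of its gene. Of the 344 members whose share rose in PEO-4 against T1074, the transcript's own level rose in 194 and fell in 12, while the gene's level rose in 106 and fell in 149 (edgeR quasi-likelihood test). Of the 318 whose share fell, the transcript fell in 200 and rose in 8, and the gene fell in 153 and rose in 80. For SKOV-3 against T1074, the 305 with a higher share had 204 transcripts up and 7 down, with 114 genes up and 103 down. Levels and shares come from the same reads, so these counts are not independent. A share is the transcript's TPM over that of its gene, so such a pattern is partly built into the measure. Taken alone, levels were called for 913 of 7385 members higher (12.4%, with 21.6% of all 76043 transcripts) and 1176 lower (15.9%, with 20.3%) in PEO-4 against T1074. SKOV-3 against T1074 gave 996 higher (13.5%, with 18.9%) and 848 lower (11.5%, with 17.3%). PEO-4 against SKOV-3 gave 954 higher (12.9%, with 22.9%) and 1342 lower (18.2%, with 22.1%).

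Among the gene lists, the splicing regulators had the most tested members and the most called ones. Of 202 NMD transcripts in 51 of the 59 listed genes, 54 in 35 genes could be tested, and 30 of them, in 19 genes, were called in at least 1 pair (55.6%, beside 33.0% of all tested members and 42.9% of all transcripts tested). In PEO-4 against T1074, 7 rose and 7 fell, in SKOV-3 against T1074 6 rose and 11 fell, and 14 were higher and 6 lower in PEO-4 than in SKOV-3. The median difference of the 54 was 0.114, -0.901 and 0.810 points in these pairs, beside the medians for all transcripts given above. The stop codon lay in a separate exon in 23 of them (42.6%, with 24.7% of all tested members). Many of these genes belong to the main families of splicing regulators, the SR proteins, which mostly promote the use of an exon, and the hnRNP proteins, which often oppose it.

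HNRNPU encodes an abundant nuclear RNA-binding protein. Its poison-exon transcript HNRNPU-228 held 37.2, 31.8, 33 and 32% for T1074, 19.9, 23.6, 21.6 and 14.5% for PEO-4 and 8.97, 8.5, 6.06 and 14.1% for SKOV-3. The 3 lines did not overlap, with T1074 highest and SKOV-3 lowest. The means were 33.5% ± 2.52 for T1074, 19.9% ± 3.91 for PEO-4 and 9.42% ± 3.4 for SKOV-3 (n = 4 each), with limma adjusted p = 0.00523 for PEO-4 against T1074, 1.22e-04 for SKOV-3 against T1074 and 0.00468 between the carcinoma lines. The transcript fell by 1.12 on the log2 scale in SKOV-3 (SE 0.24, edgeR adjusted p = 0.00319) while the gene's log2 fold change was 0.44 ± 0.16 (adjusted p = 0.0251).

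HNRNPA2B1-203 keeps the main stop codon of a gene whose protein binds pre-mRNA and takes part in its splicing and transport. Its share was 56.5, 50.8, 56 and 49.4% for T1074, 30.7, 38.1, 35.9 and 34.5% for PEO-4 and 26, 28.7, 34.5 and 35.8% for SKOV-3. All 4 T1074 libraries lay above all others, and the carcinoma lines overlapped. The means were 53.2% ± 3.6 for T1074, 34.8% ± 3.1 for PEO-4 and 31.2% ± 4.66 for SKOV-3, a difference of -18.4 points for PEO-4 (limma adjusted p = 8.60e-04) and -22 points for SKOV-3 (adjusted p = 4.40e-04), against an adjusted p of 0.353 between the carcinoma lines. It led its gene in 4 T1074, 3 PEO-4 and 1 SKOV-3 libraries. A retained-intron transcript of the gene, HNRNPA2B1-207, held a mean of 10.5% for T1074, 30.5% for PEO-4 and 38.6% for SKOV-3. Its part in the difference was not tested. Of the expected counts of the gene, HNRNPA2B1-203 took 33.8, 22.2 and 22.5% in the same order.

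TRA2B, an SR-related activator of splicing, has a poison exon near its 5′ end that TRA2B-205 contains. The shares were 25, 29.7, 26.8 and 19.4% for T1074, 8.0, 16, 16.4 and 6.04% for PEO-4 and 15.5, 15.7, 15.5 and 20.2% for SKOV-3. The T1074 libraries lay above the PEO-4 libraries, which split widely, and SKOV-3 overlapped T1074. PEO-4 was lower than T1074, with a difference of -13.6 points (limma adjusted p = 0.00716), while SKOV-3 against T1074 did not pass (limma adjusted p = 0.0901).

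SRSF7 encodes an SR protein, and in SRSF7-208 an exon is lengthened past a stop codon. The 4 libraries gave 10.6, 10.3, 15.8 and 15% for T1074, 15.3, 18.3, 22.8 and 16.6% for PEO-4 and 5.89, 5.61, 4.5 and 7.33% for SKOV-3. SKOV-3 lay below both other lines in every library. The means were 12.9% ± 2.88 for T1074, 18.3% ± 3.29 for PEO-4 and 5.83% ± 1.16 for SKOV-3, with limma adjusted p = 3.51e-04 for PEO-4 against SKOV-3 and 0.00948 for SKOV-3 against T1074. A second transcript of the gene moved the other way in SKOV-3: SRSF7-204, whose stop codon lies in a separate exon of 449 bases, had 4.6% ± 1.27 for T1074, 4.51% ± 1.3 for PEO-4 and 10.1% ± 0.608 for SKOV-3 (adjusted p = 0.00528 against T1074 and 0.00272 against PEO-4). SRSF7-204 was chosen after its values were seen.

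HNRNPDL-202 rose in SKOV-3. This transcript of another hnRNP gene keeps the main stop codon, and its share was 17.8, 16.8, 21.7 and 9.02% for T1074, 6.78, 14.1, 16.2 and 11.5% for PEO-4 and 25.4, 26.8, 32.9 and 26.1% for SKOV-3. All SKOV-3 libraries lay above the other 8. The difference from T1074 was 11.5 points (limma adjusted p = 0.0317), and PEO-4 against SKOV-3 gave -15.6 points (adjusted p = 0.00374). PEO-4 and T1074 overlapped (adjusted p = 0.329).

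CLK1 is a kinase that phosphorylates SR proteins. CLK1-204 had 25.1, 30.4, 38.3 and 34.1% for T1074, 20.3, 29.1, 37.2 and 22.2% for PEO-4 and 8.88, 16.4, 11.8 and 9.19% for SKOV-3, so that SKOV-3 lay below every other library and the other lines overlapped. The mean fell from 31.9% ± 5.6 in T1074 to 11.6% ± 3.47 in SKOV-3 (limma adjusted p = 0.00274), with 27.2% ± 7.67 in PEO-4 (adjusted p = 0.00605 against SKOV-3). Its reads moved likewise, with a log2 fold change of -1.97 ± 0.39 in SKOV-3 against T1074 (edgeR adjusted p = 0.00188). The gene's own log2 fold change was -0.52 ± 0.19 (adjusted p = 0.0293).

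**Figure D3:**
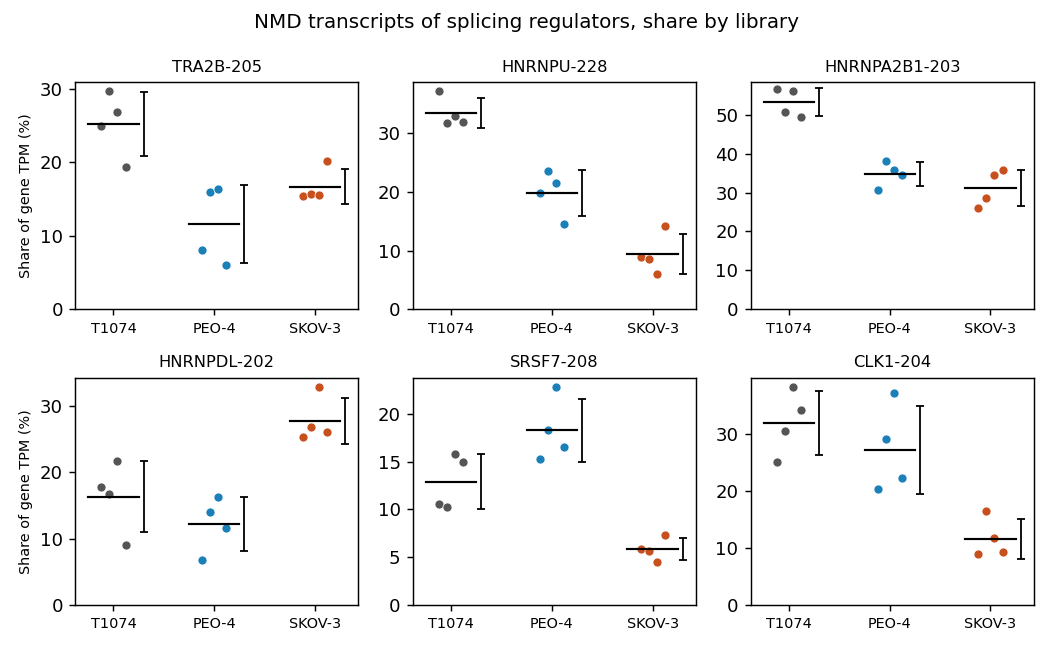
Share of 6 NMD transcripts of splicing regulators in the TPM of their gene (%), 1 point per library, with the mean (line) and SD (bar) of 4 libraries per line. T1074 lies above both carcinoma lines for HNRNPU-228 and HNRNPA2B1-203, and SKOV-3 lies above the other lines for HNRNPDL-202 and below them for SRSF7-208 and CLK1-204.

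Further members of the splicing list were called, in genes named here after their values were seen. Several genes held members that moved in opposite directions. RBM39, of a splicing coactivator, had 3 with separate exons. RBM39-212 was at 3.09% ± 1.43 for T1074, 0.129% ± 0.178 for PEO-4 and 2.43% ± 0.535 for SKOV-3 (limma adjusted p = 8.82e-04 for PEO-4 against T1074), RBM39-216 at 19.9% ± 4.68 for T1074, 16.7% ± 3.34 for PEO-4 and 27% ± 2.54 for SKOV-3 (adjusted p = 0.0132 between the carcinoma lines) and RBM39-236 at 7.94% ± 1.87 for T1074, 8.29% ± 1.45 for PEO-4 and 3.72% ± 0.895 for SKOV-3 (adjusted p = 0.0155 for SKOV-3 against T1074). The first was low in PEO-4, the second high and the third low in SKOV-3. QKI, of an RNA-binding protein of the STAR family, had QKI-217 at 0.901% ± 1.2 for T1074, 1.63% ± 1.88 for PEO-4 and 11.3% ± 0.979 for SKOV-3, higher in SKOV-3 (adjusted p = 0.00307 against T1074), and QKI-204 at 22.3% ± 2.33 for T1074, 31% ± 3.25 for PEO-4 and 23.9% ± 1.77 for SKOV-3, higher in PEO-4 (adjusted p = 0.00859). SF1, of the factor that binds the branch point, had SF1-211 at 2.72% ± 1.47 for T1074, 3.43% ± 0.907 for PEO-4 and 0.0767% ± 0.153 for SKOV-3, lower in SKOV-3 (adjusted p = 0.00201), and SF1-207 at 1.0% ± 0.687 for T1074, 2.77% ± 0.738 for PEO-4 and 3.69% ± 1.14 for SKOV-3, higher in both carcinoma lines (adjusted p = 0.0379 and 0.0111).

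LUC7L, of a protein of the U1 particle, was the splicing gene with a member called in all 3 pairs beside HNRNPU. LUC7L-207 had 7.49, 10.1, 6.98 and 17.5% for T1074, 18.9, 18.5, 17.7 and 21.2% for PEO-4 and 3.46, 3.92, 3.25 and 3.48% for SKOV-3. PEO-4 had the highest and SKOV-3 the lowest mean, with limma adjusted p = 1.36e-04 between them, and 0.0133 and 0.0117 against T1074. SNRNP70-202, of another U1 protein, was lower in SKOV-3, at 8.11% ± 0.966 for T1074, 8.25% ± 0.918 for PEO-4 and 4.12% ± 0.554 for SKOV-3 (adjusted p = 0.00531). TIAL1-213 was lower there too, at 18.8% ± 4.06 for T1074, 17.5% ± 1.94 for PEO-4 and 10.4% ± 1.9 for SKOV-3 (adjusted p = 0.0111), while TIA1-210, of the paralogous RNA-binding protein, was higher in both carcinoma lines, at 6.87% ± 0.697 for T1074, 12.6% ± 4.02 for PEO-4 and 17.1% ± 2.37 for SKOV-3 (adjusted p = 0.0375 and 0.00353). PTBP1-207, of the polypyrimidine tract binding protein, was lower in both, at 5.51% ± 0.621 for T1074, 1.36% ± 1.08 for PEO-4 and 0.711% ± 0.343 for SKOV-3 (adjusted p = 0.00656 and 0.00434). SRSF8-202 was higher in PEO-4, at 44.9% ± 1.99 for T1074, 58.6% ± 2.64 for PEO-4 and 50.8% ± 2.07 for SKOV-3 (adjusted p = 4.73e-04), and TARDBP-203, of TDP-43, lower in SKOV-3, at 14.9% ± 2.99 for T1074, 10.5% ± 1.88 for PEO-4 and 9.07% ± 1.23 for SKOV-3 (adjusted p = 0.0247).

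The decay pathway's own genes had few members to test. Of 31 NMD transcripts in 18 of the 29 listed genes, 14 in 10 genes were tested and 5 were called in at least 1 pair (35.7%, beside 33.0% of all tested members), with medians of -0.410, -0.690 and -0.653 points in the 3 pairs. DCP2 removes the cap from decaying messages. DCP2-202 had 6.51, 7.46, 8.21 and 9.26% for T1074, 13.1, 11.4, 9.76 and 10.3% for PEO-4 and 23.1, 20.2, 11.9 and 21.1% for SKOV-3. SKOV-3 was above T1074 in every library (limma adjusted p = 0.00328) and overlapped PEO-4 through 1 library. DHX34-202, of a helicase of the pathway, was at 11.8% ± 4.54 for T1074, 11.3% ± 4.9 for PEO-4 and 3.89% ± 1.41 for SKOV-3 and lower in SKOV-3 than in T1074 (adjusted p = 0.0310), a call lost in 6 of the 12 fits that leave out 1 library. NCBP2-205, of the small cap-binding subunit, was at 14.6% ± 3.6 for T1074, 8.73% ± 1.22 for PEO-4 and 13% ± 0.749 for SKOV-3 and lower in PEO-4 than in T1074 (adjusted p = 0.0213), a call lost in 3 of those fits. RUVBL1-208, named after its values were seen, was also called in at least 1 pair, at 0.498% ± 0.230 for T1074, 2.01% ± 0.849 for PEO-4 and 1.16% ± 0.465 for SKOV-3.

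At the level of whole genes, genes of the machinery were called in both directions, as were genes at large. All 29 genes were tested. In PEO-4 against T1074, 7 were higher (36.3% of all 19898 genes tested were) and 13 lower (37.8%). In SKOV-3 against T1074, 7 were higher (background 33.3%) and 11 lower (34.5%), and between the carcinoma lines 7 were higher in PEO-4 (38.5%) and 10 lower (36.7%). The median log2 fold change of the 29 was -0.28, -0.06 and -0.12, beside -0.01, -0.03 and 0.05 over all genes. The count of 7 higher genes in SKOV-3 went up to 12 without T1074 replicate 3.

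Among the core factors, the helicase UPF1 was at 76.7 ± 15.6 CPM for T1074, 108 ± 7.3 CPM for PEO-4 and 86.7 ± 2.86 CPM for SKOV-3 (CPM, counts scaled to the library total after TMM normalisation) and was higher in PEO-4 than in T1074 (log2 fold change 0.49 ± 0.12, edgeR adjusted p = 0.00263), and UPF2 likewise (log2 fold change 0.36 ± 0.12, adjusted p = 0.0186). On the TPM scale the direction was the opposite, with UPF1 at 7.19 TPM in T1074 and 6.32 TPM in PEO-4 and UPF2 at 1.58 and 1.23 TPM. TPM was lower as a whole in the carcinoma lines, with a median log2 ratio to T1074 over the 7565 genes of -0.95 for PEO-4 and -0.45 for SKOV-3. Of the machinery genes called against T1074, 4 in PEO-4 (UPF1, UPF2, NBAS and RUVBL2) and 2 in SKOV-3 (CASC3 and RUVBL2) had the opposite direction in TPM. UPF3A and UPF3B, which link UPF2 to the exon junction, were lower in both carcinoma lines. UPF3A had 10.2 ± 3.02 CPM for T1074, 4.13 ± 0.968 CPM for PEO-4 and 5.97 ± 0.868 CPM for SKOV-3 (adjusted p = 6.80e-05 and 0.00459), and UPF3B log2 fold changes of -1.06 ± 0.38 (adjusted p = 0.0213) and -1.53 ± 0.39 (adjusted p = 0.00275). UPF3B was low, at 2.43 ± 1.62 CPM for T1074, 1.14 ± 0.163 CPM for PEO-4 and 0.816 ± 0.168 CPM for SKOV-3. Its T1074 replicate 4, at 0.895 CPM, lay below every PEO-4 library and within the SKOV-3 range. The highest T1074 value, 4.72 CPM, came from replicate 1, the shallowest library. The kinase SMG1 was higher in both carcinoma lines in CPM, at 215 ± 16 CPM for T1074, 313 ± 10.3 CPM for PEO-4 and 477 ± 41.6 CPM for SKOV-3 (adjusted p = 1.80e-04 and 1.48e-07). In TPM it was similar in T1074 (8.445 ± 1.83) and PEO-4 (8.62 ± 1.26) and higher in SKOV-3 (13.4 ± 2.31). SMG6, the endonuclease that cuts the target near its stop codon, had 57.1, 52.3, 58.6 and 42.3 CPM for T1074, 12.4, 12.4, 13 and 12.9 CPM for PEO-4 and 19.6, 17.4, 19.4 and 18.2 CPM for SKOV-3. Every T1074 library was above every other, with log2 fold changes of -2.05 ± 0.11 in PEO-4 (adjusted p = 8.07e-10) and -1.50 ± 0.11 in SKOV-3 (adjusted p = 2.44e-08). SMG8, which regulates SMG1, was lower in both, with log2 fold changes of -0.95 ± 0.12 and -0.75 ± 0.12 (adjusted p = 7.58e-06 and 8.69e-05). SMG5 was lower in PEO-4 (-0.74 ± 0.18, adjusted p = 0.00149), and SMG9 in SKOV-3 (-0.53 ± 0.15, adjusted p = 0.00718).

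Of the exon junction and termination factors, EIF4A3 rose in PEO-4, and ETF1 and GSPT1 rose in SKOV-3. EIF4A3, the anchor of the exon junction complex, was at 90.3 ± 16.6 CPM for T1074, 216 ± 7.63 CPM for PEO-4 and 99.5 ± 4.06 CPM for SKOV-3 (PEO-4 against T1074, log2 fold change 1.26 ± 0.12, edgeR adjusted p = 2.59e-07), against 0.14 ± 0.12 in SKOV-3 (adjusted p = 0.305). MAGOHB fell in both, with log2 fold changes of -0.75 ± 0.15 and -1.37 ± 0.16 (adjusted p = 4.90e-04 and 2.36e-06), and CASC3 rose in SKOV-3 in CPM (0.45 ± 0.12, adjusted p = 0.00292) with TPM means of 10.1 in SKOV-3 and 11.4 in T1074. The release factor genes ETF1 and GSPT1 rose in SKOV-3, with 1.16 ± 0.11 and 1.03 ± 0.11 (adjusted p = 3.43e-07 and 1.43e-06). PABPC1, the poly(A)-binding protein that opposes NMD when near the stop codon, was at 292 ± 58.4 CPM for T1074, 3580 ± 659 CPM for PEO-4 and 653 ± 113 CPM for SKOV-3, and its copies elsewhere in the genome make its count uncertain. Of the factors that finish decay, XRN1, DCP1A and DCP2 were lower in both carcinoma lines. Their log2 fold changes were -0.67 ± 0.09, -0.89 ± 0.10 and -0.53 ± 0.09 in PEO-4 (edgeR adjusted p = 6.99e-06, 1.54e-06 and 1.04e-04) and -0.55 ± 0.09, -0.36 ± 0.10 and -0.69 ± 0.09 in SKOV-3 (adjusted p = 5.75e-05, 0.00452 and 1.02e-05). MAGOH, RNPS1, DHX34 and RUVBL1 were called in no pair. Whether these levels bear on the shares was not tested.

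**Figure D4:**
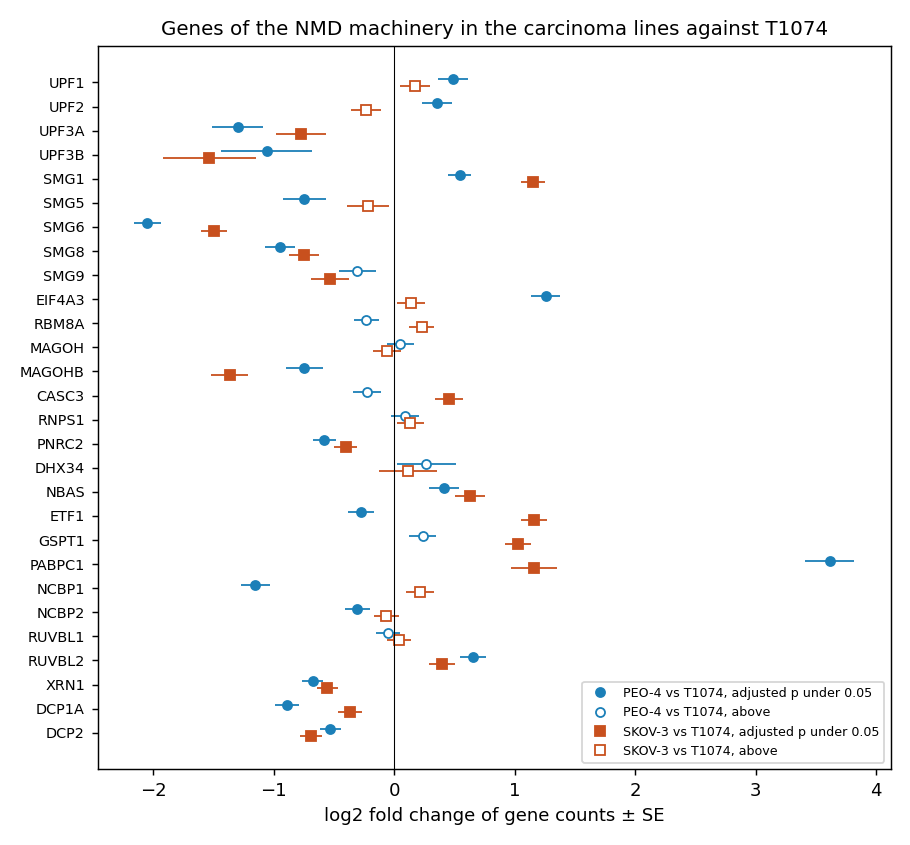
Log2 fold change of gene counts (x axis, ± SE) for 28 genes of the NMD machinery in PEO-4 (circles) and SKOV-3 (squares) against T1074, 4 libraries per line, with filled symbols for an adjusted p under 0.05. SMG6 lies furthest below 0 in PEO-4 and PABPC1 furthest above it.

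In polyamine metabolism, 4 members could be tested and 3 were called in at least 1 pair, too few to set beside the 33.0% of all tested members. SAT1 breaks polyamines down, and its poison-exon transcript SAT1-208 had 17.8, 15.7, 18.4 and 3.85% for T1074, 1.15, 0.966, 1.6 and 1.64% for PEO-4 and 8.76, 13.3, 14.3 and 15.4% for SKOV-3. It was lowest in the 4 PEO-4 libraries, while T1074 replicate 4 lay below the other T1074 and all SKOV-3 libraries. PEO-4 was at 1.34% ± 0.333 against 13.9% ± 6.82 in T1074 (limma adjusted p = 0.00291) and 12.9% ± 2.91 in SKOV-3 (adjusted p = 0.00248). The reads of the gene rose in PEO-4 (log2 fold change 1.04 ± 0.31, edgeR adjusted p = 0.00670) and those of this transcript fell (-2.13 ± 0.42, adjusted p = 0.00155). ODC1-204, of the first enzyme of polyamine synthesis, was at 11% ± 3.21 for T1074, 18.5% ± 4.91 for PEO-4 and 7.85% ± 2.98 for SKOV-3 and higher in PEO-4 than in SKOV-3 (adjusted p = 0.0111). AMD1-206 was at 12.4% ± 7.51 for T1074, 23.1% ± 1.82 for PEO-4 and 23.3% ± 4.88 for SKOV-3, and its calls against T1074 (adjusted p = 0.0456 and 0.0493) are near the threshold. For SKOV-3 against T1074 it was lost in 9 of the 12 fits that leave out 1 library. The pair of short transcripts takes few reads, 2.51 and 2.31% of the counts of their genes in T1074.

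Ribosomal protein genes gave 17 testable members in 12 genes, 5 of them called in at least 1 pair (29.4%, beside 33.0% of all tested members). RPS9, of the small subunit, had a pair of members with the same stop codon exon of 172 bases that differed between the lines. RPS9-208 had 7.23, 5.09, 4.28 and 3.36% for T1074, 3.96, 3.99, 5.8 and 3.98% for PEO-4 and 0.131, 0.173, 0.0613 and 0.101% for SKOV-3, and RPS9-206 had 0.143, 0, 0 and 0.0417% for T1074, 2.51, 3.31, 2.78 and 3.05% for PEO-4 and 1.86, 1.86, 2.25 and 2.05% for SKOV-3. PEO-4 had both, T1074 mainly the first and SKOV-3 mainly the second. For RPS9-208, SKOV-3 was lower than T1074 (limma adjusted p = 1.22e-04) and than PEO-4 (adjusted p = 8.62e-05), and for RPS9-206 T1074 was lower than PEO-4 (adjusted p = 1.74e-05) and than SKOV-3 (adjusted p = 1.52e-04). RPL13A-214, of the large subunit, was lower in SKOV-3, at 4.06% ± 1.51 for T1074, 3.5% ± 0.404 for PEO-4 and 0.814% ± 0.0995 for SKOV-3 (adjusted p = 0.00255 against T1074), and RPL13-210 higher, at 3.96% ± 1.06 for T1074, 3.78% ± 0.278 for PEO-4 and 6.63% ± 0.240 for SKOV-3 (adjusted p = 0.0249). Processed copies of these genes can take part of their reads. RPL22L1 encodes a variant of a large-subunit protein, and RPL22L1-204, outside the list, had 64.7, 66.1, 73.1 and 42.6% for T1074, 81.6, 81.4, 81.4 and 83.6% for PEO-4 and 67, 65.7, 70.1 and 74.4% for SKOV-3. The PEO-4 libraries lay above all others, at 82% ± 1.05 against 61.6% ± 13.2 in T1074 (adjusted p = 0.0101).

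Translation factors gave 26 testable members in 17 genes, of which 10 were called in at least 1 pair (38.5%, beside 33.0%). EIF4A2, a helicase of initiation, had 4 of them. EIF4A2-203 was at 4.32% ± 2.0 for T1074, 11.4% ± 2.74 for PEO-4 and 5.24% ± 3.21 for SKOV-3 and higher in PEO-4 (limma adjusted p = 0.0276 against T1074), and EIF4A2-202 at 7.01% ± 1.78 for T1074, 3.97% ± 2.18 for PEO-4 and 10.7% ± 2.18 for SKOV-3 and lower in PEO-4 than in SKOV-3 (adjusted p = 0.00645). The call of EIF4A2-203 against T1074 was lost in 4 of the 12 fits that leave out 1 library. EIF3I-221, of a subunit of eIF3, was at 8.49% ± 2.07 for T1074, 5.34% ± 1.04 for PEO-4 and 4.31% ± 1.02 for SKOV-3 (adjusted p = 0.0215 for SKOV-3 against T1074), a call lost in 5 of those fits, and EIF2B4-204, of a subunit of eIF2B, at 2.62% ± 1.13 for T1074, 6.52% ± 1.58 for PEO-4 and 4.8% ± 1.0 for SKOV-3 (adjusted p = 0.0119 for PEO-4 against T1074).

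The stress and amino acid response list gave 29 testable members in 16 genes, 11 of them called in at least 1 pair (37.9%, beside 33.0%). CEBPG, a bZIP transcription factor of this response, had CEBPG-203 at 24.1, 22.9, 19.3 and 27.3% for T1074, 30.0, 26.6, 23 and 26% for PEO-4 and 46.3, 38, 36.2 and 32.5% for SKOV-3. SKOV-3 was above the other lines in every library, with limma adjusted p = 0.00486 against T1074 and 0.0109 against PEO-4. CARS1-204, of cysteinyl-tRNA synthetase, had 8.15% ± 3.44 for T1074, 5.13% ± 3.85 for PEO-4 and 18.5% ± 3.34 for SKOV-3 (adjusted p = 0.0268 and 0.00283 for the same pairs), and PSPH-209, of the last enzyme of serine synthesis, 4.68% ± 1.5 for T1074, 2.82% ± 1.55 for PEO-4 and 10.7% ± 2.1 for SKOV-3 (adjusted p = 0.0188 and 0.00158). SLC7A11-202, of the cystine transporter, was at 7.51% ± 2.12 for T1074, 1.88% ± 2.78 for PEO-4 and 9.25% ± 2.01 for SKOV-3 and lower in PEO-4 than in both other lines (adjusted p = 0.0199 and 0.00695). This 797-base transcript took 0.497% of the gene's counts in T1074, and the call against SKOV-3 was lost on a log2 ratio scale (adjusted p = 0.357). Among aminoacyl-tRNA synthetase genes, named after their values were seen, GARS1-220 was lower in both carcinoma lines, at 2.55% ± 0.441 for T1074, 0.968% ± 0.436 for PEO-4 and 0.354% ± 0.124 for SKOV-3 (adjusted p = 0.0112 and 0.00111), and GARS1-214 higher, at 1.29% ± 0.915 for T1074, 4.89% ± 0.587 for PEO-4 and 4.17% ± 1.21 for SKOV-3 (adjusted p = 0.0110 and 0.0276). CARS1-215 had 8.31, 5.13, 4.62 and 3.69% for T1074, 0, 0, 0 and 0% for PEO-4 and 1.98, 0.505, 0.783 and 0% for SKOV-3, and so was listed at 0 in all PEO-4 libraries (adjusted p = 1.88e-04 against T1074).

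Of the DNA repair and cell cycle genes, 19 had 32 testable members and 8 were called in at least 1 pair (25%, beside 33.0%). ERCC2 is a helicase of nucleotide excision repair and transcription. ERCC2-214, which keeps the main stop codon, had 5.87, 7.67, 10.5 and 4.03% for T1074, 26.1, 27.7, 19.4 and 21.6% for PEO-4 and 19.1, 27.2, 19.2 and 19.5% for SKOV-3. Both carcinoma lines lay above T1074 in every library (limma adjusted p = 4.45e-04 and 0.00158), while the gene as a whole was lower, with log2 fold changes of -1.27 ± 0.13 and -1.47 ± 0.13 (edgeR adjusted p = 8.37e-07 and 2.63e-07). The transcript's own log2 fold changes were 0.62 ± 0.26 and 0.42 ± 0.26 (adjusted p = 0.0818 and 0.248). The kinase gene ATR had ATR-215 at 8.4, 11.4, 18.3 and 5.56% for T1074, 2.52, 3.25, 3.04 and 0.662% for PEO-4 and 0.353, 0, 0.568 and 0% for SKOV-3, above the carcinoma lines in every T1074 library (adjusted p = 0.00809 and 6.45e-04). RAD50-209 was at 39.7% ± 5.43 for T1074, 27.6% ± 2.28 for PEO-4 and 34.1% ± 1.52 for SKOV-3 and lower in PEO-4 than in T1074 (adjusted p = 0.00566). Named after their values were seen, MDM2-204, of the p53 ubiquitin ligase, was higher in both carcinoma lines, at 3.32% ± 0.310 for T1074, 7.88% ± 2.04 for PEO-4 and 9.43% ± 1.37 for SKOV-3 (adjusted p = 0.00582 and 0.00185), and PMS2-208, of mismatch repair, lower in SKOV-3, at 12.6% ± 3.69 for T1074, 11.8% ± 4.26 for PEO-4 and 2.12% ± 1.63 for SKOV-3 (adjusted p = 0.00565). PMS2 has near-identical copies, so its value is uncertain.

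Outside the lists, the named members with the largest differences included genes of trafficking, signalling and mitochondria. CYTH2, an activator of ARF proteins, had CYTH2-202 at 58.9, 57.3, 59.1 and 54.2% for T1074, 40.4, 38.4, 34.6 and 41.1% for PEO-4 and 61.3, 55.2, 64.6 and 61.8% for SKOV-3. PEO-4 was below both other lines in every library (limma adjusted p = 2.40e-04 against T1074 and 6.53e-05 against SKOV-3). IFITM2-212, of an interferon-induced membrane protein, had 22.9, 28.1, 30.3 and 29.9% for T1074, 7.78, 8.14, 7.89 and 7.99% for PEO-4 and 13.6, 14, 11.7 and 13.3% for SKOV-3, highest in T1074 with no overlap between any pair of lines (adjusted p = 5.61e-06 and 1.79e-04). IFITM2 has near-identical neighbours and an overlapping gene on its strand, so this value is uncertain. NAPA-207, of alpha-SNAP, a factor of membrane fusion, had 5.23, 4.11, 2.64 and 4.83% for T1074, 14.8, 20.3, 19.9 and 15.6% for PEO-4 and 10.5, 11.3, 10.1 and 9.86% for SKOV-3. T1074 was lowest and PEO-4 highest with no overlap (adjusted p = 3.85e-05 for PEO-4 against T1074). NAPA-207 is 554 bases long and took 5.29% of the gene's counts in PEO-4.

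DGUOK makes precursors of mitochondrial DNA. DGUOK-203 had 39.1, 45.2, 40.6 and 36.4% for T1074, 47.1, 52.6, 46.7 and 52.1% for PEO-4 and 56.6, 64.3, 62.7 and 58.4% for SKOV-3, lowest in T1074 and highest in SKOV-3 with no overlap (limma adjusted p = 4.21e-04 for SKOV-3 and 0.0220 for PEO-4 against T1074). RNF149-202, of a ubiquitin ligase, was at 17.9% ± 4.6 for T1074, 37.2% ± 3.34 for PEO-4 and 25.8% ± 2.9 for SKOV-3 and rose in PEO-4 (adjusted p = 5.38e-04 against T1074). PDIA3-225, of a disulfide isomerase of the endoplasmic reticulum, was at 37.3% ± 3.31 for T1074, 25.6% ± 2.7 for PEO-4 and 20.7% ± 4.27 for SKOV-3 and fell in both carcinoma lines (adjusted p = 0.00846 and 0.00135). STYXL1-207 was at 22.3% ± 5.82 for T1074, 5.5% ± 2.3 for PEO-4 and 14.3% ± 3.24 for SKOV-3 and fell in PEO-4 (adjusted p = 6.12e-04). In SKOV-3 against T1074, ACTR10-202, of a dynactin subunit, rose to 42.5% ± 7.29 from 20.1% ± 5.9 (adjusted p = 0.0101), C8orf82-205 to 63.3% ± 5.71 from 44.7% ± 6.7 (adjusted p = 0.00513) and DDA1-204 to 68.3% ± 2.41 from 53.4% ± 5.32 (adjusted p = 0.00539). C8orf82 shares exon sequence with LRRC24 on its strand. DDA1-204 is 502 bases long and took 10.0% of its gene's counts in T1074 and 19.0% in SKOV-3.

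Between the carcinoma lines, FNTA-205, of the shared subunit of the protein prenyltransferases, was at 18.3% ± 1.78 in PEO-4 and 3.86% ± 0.358 in SKOV-3, with 8.56% ± 1.73 in T1074 (limma adjusted p = 8.46e-06 for PEO-4 against SKOV-3). HDDC2-209 was at 21.9% ± 5.42 and 7.43% ± 6.17 (adjusted p = 0.00928). KPNA4-204, of an importin, was higher in SKOV-3, at 31.9% ± 5.68 against 17.4% ± 6.09 in PEO-4 (adjusted p = 0.0195), a call lost when SKOV-3 replicate 3 was left out (adjusted p = 0.0575). ARMC10-203 was at 23.6% ± 1.5 against 9.5% ± 1.73 (adjusted p = 3.39e-04). CYTH2-202, FNTA-205, RPL13A-214, RAD50-209, SAT1-208 and DCAF11-215 also share exon bases with another annotated gene on their strand, so reads there cannot be assigned with certainty.

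In some genes an NMD transcript was the most abundant one. Between 227 and 248 members led their gene in a T1074 library, 242 to 271 in a PEO-4 library and 261 to 273 in a SKOV-3 library. In all 12 libraries 99 members led, in 99 genes. By mean TPM the highest were RPS3-218, DDX5-207, COX6C-207, JUN-202, EIF3M-212, IL6ST-213, CAPZA2-204, EIF3F-204, the transcript ENST00000404603 and MRPL11-206. RPS3-218 held 39.1% ± 1.21 for T1074, 38.1% ± 1.22 for PEO-4 and 39.3% ± 2.12 for SKOV-3 of RPS3, with no call in any pair. COX6C-207, of a subunit of cytochrome c oxidase, held 91.2% ± 6.99 for T1074, 79.7% ± 3.44 for PEO-4 and 82.8% ± 1.03 for SKOV-3 and was lower in PEO-4 than in T1074 (limma adjusted p = 0.0162). That call was lost in a fit of the 8 libraries of the pair (adjusted p = 0.0547). JUN-202, of the transcription factor gene JUN with 2 listed transcripts, held 60.5% ± 6.63 for T1074, 61.7% ± 7.52 for PEO-4 and 69.6% ± 3.47 for SKOV-3, while the gene stood at 19.1 ± 3.75, 100.0 ± 19.3 and 9.32 ± 1.06 TPM. IL6ST-213, of the receptor subunit gp130, held 39.7% ± 1.19 for T1074, 41.7% ± 2.9 for PEO-4 and 41.8% ± 3.37 for SKOV-3, with the gene at 114 ± 14.7, 9.15 ± 0.825 and 31.2 ± 3.3 TPM. In both genes the level differed widely between the lines, and the share was called in no pair. With a replicate block, however, JUN-202 was called higher in SKOV-3 than in T1074 (limma adjusted p = 0.0265). EIF3M-212 and EIF3F-204, of subunits of eIF3, CAPZA2-204, of an actin-capping protein, and MRPL11-206, of the mitochondrial ribosome, were also called in no pair, with line means from 29.9 to 65.3%.

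TPM is a per-length scale, so a short transcript can hold a large share of the TPM with few reads. DDX5-207, 575 bases of an RNA helicase gene, held 35.2% ± 0.178 for T1074, 39.5% ± 2.61 for PEO-4 and 41.6% ± 1.23 for SKOV-3 of the TPM and 9.6, 11.1 and 13.4% of the expected counts of DDX5. Its share was called higher in SKOV-3 than in T1074 (limma adjusted p = 0.0205), a call lost without SKOV-3 replicate 1 or 2. IL6ST-213, 8412 bases long, went the other way, with 66.8, 70.2 and 71.6% of the counts. DCP2-202, UBE2D3-229 and SMAD4-213 also held less of the counts than of the TPM. For T1074, PEO-4 and SKOV-3 the count shares were 2.07, 2.95 and 5.20% for DCP2-202 and 3.96, 4.05 and 7.27% for UBE2D3-229. Those of SMAD4-213 were 9.24, 9.72 and 8.32%. ENST00000404603 held 99.2% ± 0.689 for T1074, 99% ± 0.693 for PEO-4 and 99.5% ± 0.304 for SKOV-3 of its gene and shares exons with SNRPD3 and GGT1 on the same strand, so its reads cannot be assigned with certainty.

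In 43 members the lead changed between lines, in that they led in all 4 libraries of a line and in none of another, and 10 of these were in genes with a TPM of at least 5. The lead is part of the measured share, so these are descriptions. NEPRO-211 had 8.15, 7.26, 10.6 and 11% for T1074, 24, 19.9, 16.7 and 24.8% for PEO-4 and 24, 25.2, 28.1 and 27.9% for SKOV-3, lowest in T1074 with no overlap (limma adjusted p = 7.77e-04 and 1.98e-04 in PEO-4 and SKOV-3). INF2-210, of a formin that builds actin filaments, had 6.15, 11.2, 4.71 and 16.3% for T1074, 25.8, 27.1, 27.7 and 25% for PEO-4 and 17.8, 18.7, 20.7 and 21.9% for SKOV-3 and was likewise lowest in T1074 (adjusted p = 9.89e-04 and 0.0135). TMEM126B-205, of an assembly factor of respiratory complex I, had 47.3, 41.6, 37.4 and 39.5% for T1074, 27, 28.1, 22 and 12.5% for PEO-4 and 27.7, 26.5, 30.6 and 30.7% for SKOV-3. It was highest in T1074, with adjusted p = 0.00314 and 0.0378. DCAF11-215, of a substrate receptor of CUL4 ligases, was at 15.1% ± 3.12 for T1074, 20.3% ± 2.49 for PEO-4 and 4.87% ± 1.98 for SKOV-3 (adjusted p = 1.31e-04 between the carcinoma lines). ATF6-220, of a stress sensor of the endoplasmic reticulum, was at 29.4% ± 3.59 for T1074, 35.4% ± 2.46 for PEO-4 and 44.2% ± 5.26 for SKOV-3 (adjusted p = 0.00395 for SKOV-3 against T1074).

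The other 5 had smaller ranges between line means. RIPK2-204, of a kinase in innate immune signalling, was at 46.8% ± 4.51 for T1074, 45.4% ± 8.65 for PEO-4 and 35.4% ± 7.1 for SKOV-3 and was called in no pair (adjusted p = 0.0982 for SKOV-3 against T1074). Without transcripts under 1000 bases, RIPK2-204 was called lower in SKOV-3 than in T1074, with a difference of -17.0 points (adjusted p = 0.00285). UBE2D3-229, of a ubiquitin-conjugating enzyme, was at 14.5% ± 2.82 for T1074, 15.7% ± 2.37 for PEO-4 and 22.4% ± 2.39 for SKOV-3 (limma adjusted p = 0.0160 for SKOV-3 against T1074). ASAH1-242, of acid ceramidase, was at 24.4% ± 3.65 for T1074, 19.7% ± 3.67 for PEO-4 and 26.8% ± 2.33 for SKOV-3 (adjusted p = 0.0423 between the carcinoma lines), a call lost in 8 of the 12 fits that leave out 1 library and without the filter on share and count (adjusted p = 0.0667). Without transcripts under 1000 bases, the difference of ASAH1-242 went from -7.16 to -0.596 points (adjusted p = 0.889). SMAD4, the shared SMAD of TGF-beta signalling, had 2 such members that differed by line. SMAD4-216 was at 21.6% ± 2.41 for T1074, 26.9% ± 1.04 for PEO-4 and 27.5% ± 0.907 for SKOV-3 (adjusted p = 0.0280 and 0.0214 for PEO-4 and SKOV-3 against T1074). The second of these calls was lost without T1074 replicate 1, SKOV-3 replicate 3 or SKOV-3 replicate 4 (adjusted p = 0.0524 to 0.0552) and in a fit of the 8 libraries of the pair (adjusted p = 0.0536). SMAD4-213 was at 29.2% ± 1.24 for T1074, 29.7% ± 2.6 for PEO-4 and 24.4% ± 1.86 for SKOV-3 (adjusted p = 0.0390 for PEO-4 against SKOV-3), a call lost in 6 of the 12 fits that leave out 1 library, in the 8-library fit and without the filter (adjusted p = 0.0553 and 0.0596). SMAD4 shares exon sequence with another gene on its strand.

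**Figure D5:**
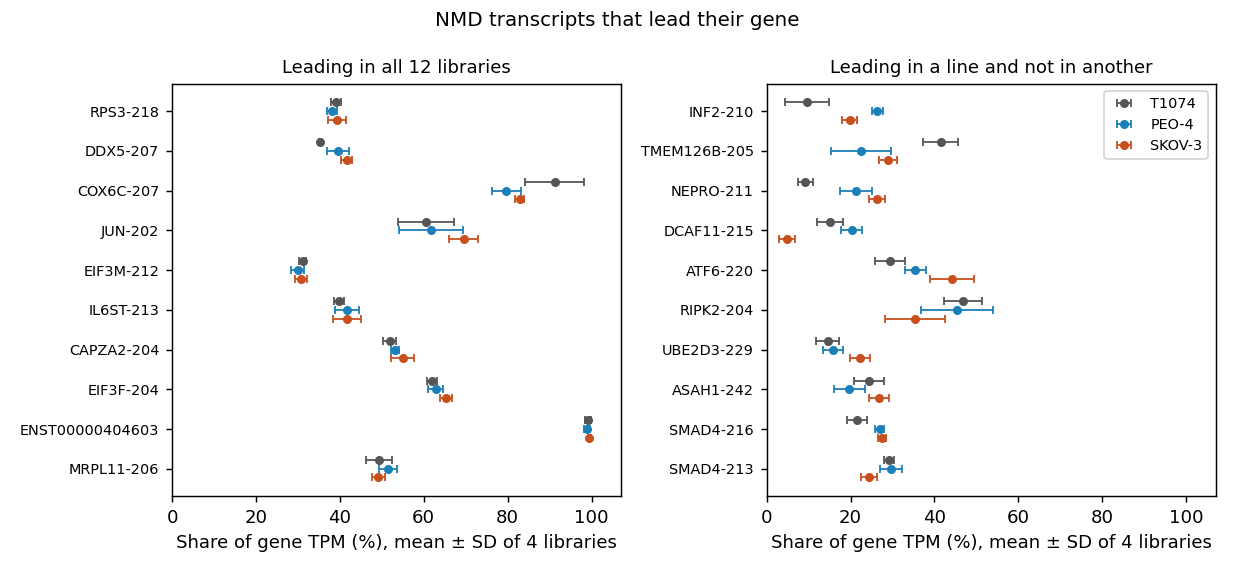
Mean share of gene TPM (%, ± SD of 4 libraries) by cell line for the 10 NMD transcripts of highest TPM that lead their gene in all 12 libraries (left) and 10 that lead in a line and not in another (right). On the left the 3 lines lie close together for most transcripts, while on the right INF2-210 and NEPRO-211 are lowest and TMEM126B-205 is highest in T1074.

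The libraries held 19780836 to 55739060 expected counts, the lowest being T1074 replicate 1, and NMD transcripts of the genes studied took 385086 to 1274163 of them. Genes past the TPM limit held 10.7 to 23.7% of the TPM of a library. Replicates of a line differed well beyond counting noise, so none was a copy of another. Of the epithelial markers, EPCAM stood at 33.6 ± 4.39 TPM in PEO-4, 6.02 ± 1.38 in SKOV-3 and 0.0600 ± 0.0408 in T1074, and CDH1 at 9.25, 1.89 and 0.163 TPM in the same order. The keratins were present in all lines, KRT8 at 104, 89.3 and 177 TPM, KRT18 at 77.6, 39.2 and 123 TPM and KRT7 at 95.8, 116 and 53.2 TPM. PAX8, of Müllerian tissue, stood at 14.1, 14.6 and 0.0175 TPM. The other Müllerian carcinoma markers differed between the carcinoma lines, with WT1 at 22.5, 0.14 and 5.15 TPM and MUC16 at 6.23, 0.0025 and 0 TPM. CDH2, a mesenchymal cadherin, stood at 27.2 TPM in T1074, 3.72 in SKOV-3 and 0.203 in PEO-4, while VIM, the mesenchymal intermediate filament, stood at 185 ± 40.6 in T1074, 337 ± 117 in SKOV-3 and 0.0325 ± 0.0150 in PEO-4. PTPRC, PECAM1 and CDH5, of leukocytes and endothelium, were at or near 0 in all lines, with means up to 0.175 TPM.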

How the data were processed

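Total RNA of 12 libraries was sequenced, 4 for each cell line. Per the labels and the submitters' processing notes, the authors used bcl2fastq 2.20.0.422, Trimmomatic 0.39, STAR 2.7.3a and RSEM 1.3.1 on hg38 with a GENCODE annotation. RSEM divides reads among the transcripts of a gene by estimate. The files deposited by the authors hold an expected count, a TPM and an effective length for each transcript. TPM is set by the authors within each library and given in steps of 0.01. The deposited effective lengths were used, with the expected counts, to compute shares without that rounding as an alternative.

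Transcript types were taken from GENCODE 44 on GRCh38, matched by stable ID for 242542 of 244939 transcripts, and stop codon positions came only from the same transcript version. Shares were transcript TPM over the summed TPM of the gene. Pooled shares were compared with an exact two-sided permutation test, adjusted over 9 tests by Benjamini-Hochberg. Shares of single transcripts were tested on the arcsine square root scale with limma 3.58.1 on all 12 libraries, for 37185 transcripts of all types with a mean share of at least 1% and a mean expected count of at least 10, and adjusted over all of them. Levels of transcripts and genes were tested with edgeR 4.0.16 (quasi-likelihood) in R 4.3.3 on expected counts rounded to whole numbers. Tables were made with Python 3.11.15. Scripts were tested on simulated data.

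Transcripts were named by rule. For each pair and direction, these were the 5 members of largest difference among those called, without overlap and with a gene TPM of at least 5. To them were added the 10 of highest TPM that led their gene in all 12 libraries, the 10 of largest range whose lead changed between lines, and up to 4 called members of each of 7 gene lists. Exceptions are stated where they occur, and some named transcripts are not reported here. The members and lists were chosen with earlier results of these data known. Library totals ran from 19780836 to 55739060 expected counts, and the shallowest libraries are the least precise. Replicates with the same number did not deviate together, so they were not paired. Alternatives were other filters, thresholds, scales, scalings and tools (DESeq2 1.42.0 and edgeR's diffSpliceDGE among them), a replicate block and each library left out.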

Additional observations from a re-analysis of the deposited data

Results flagged for a closer look

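In 15 of 276 groups of 4 libraries (5.43%), 1 library stood apart from the other 3 by more than Dixon's critical value, which chance alone passes in about 5% of groups. The items are shares of named transcripts and gene levels of the NMD machinery.

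Among the shares, STYXL1-207 was at 31.1% in T1074 replicate 1 against 18.9 to 19.8% in the other T1074 libraries. T1074 replicate 2 had KPNA4-204 at 12.1% (others 22.2 to 24.1%). In PEO-4, replicate 1 had ENST00000404603 at 100% (98.6 to 98.7%), replicate 3 had RPS9-208 at 5.80% (3.96 to 3.99%) and ODC1-204 at 11.2% (20.4 to 21.7%), and replicate 4 had RPL22L1-204 at 83.6% (81.4 to 81.6%). In SKOV-3, replicate 2 had ERCC2-214 at 27.2% (19.1 to 19.5%), replicate 3 had JUN-202 at 64.4% (70.9 to 71.7%), and replicate 4 had PSPH-209 at 7.58% (11.3 to 12%) and AMD1-206 at 16.1% (24.8 to 26.4%).

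Among the gene levels, T1074 replicate 1, the shallowest library, had UPF3A at 14.8 CPM (others 8.43 to 9.10 CPM) and ETF1 at 231 CPM (195 to 196 CPM). PEO-4 replicate 3 had XRN1 at 87.0 CPM (80.5 to 81.3 CPM). In SKOV-3, replicate 4 had PABPC1 at 485 CPM (697 to 723 CPM) and RUVBL1 at 49.3 CPM (41.5 to 42.8 CPM).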

How the results depend on the processing

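For the pooled NMD share, the difference of PEO-4 from T1074 was 0.0897 points with a gene TPM of at least 5 and 0.0111 points without ribosomal protein genes, against -0.122 points, and that of SKOV-3 from T1074 was -0.0308 points without transcripts under 1000 bases, against 0.299 points. With 1 library left out, it ran from -0.208 to -0.0367 points for PEO-4 against T1074, from 0.213 to 0.384 points for SKOV-3 against T1074 and from -0.456 to -0.394 points for PEO-4 against SKOV-3. Without T1074 replicate 3, the last 2 pairs passed the threshold (exact permutation test, adjusted p = 0.0429). PEO-4 against SKOV-3 holds no T1074 library, so its own values were unchanged and only its adjustment over the tests moved.

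Members with a higher and lower share numbered 344 and 318 (PEO-4 against T1074), 305 and 292 (SKOV-3 against T1074) and 429 and 399 (PEO-4 against SKOV-3). In the same order, they numbered 190 and 188, 217 and 151, and 174 and 237 with a mean share of at least 5%, 137 and 142, 146 and 121, and 166 and 158 with a gene TPM of at least 5, and 151 and 134, 120 and 114, and 205 and 180 at an adjusted p under 0.01. A difference of at least 10 points left 85 and 59, 95 and 45, and 56 and 103, and edgeR's diffSpliceDGE, against the other transcripts of the gene with a mean count of at least 10, called 97 and 100, 91 and 102, and 144 and 114. Summed per gene, 2727 genes were tested and 181 and 179, 202 and 164, and 227 and 239 were called. On a log2 ratio scale with a pseudocount of 0.1 TPM, 749 and 270, 530 and 302, and 549 and 366 were called. A fit of the 8 libraries of the pair gave 188 lower in PEO-4 than in T1074, and without transcripts under 1000 bases 263 were lower in PEO-4 than in SKOV-3. Stricter limits test or keep fewer transcripts. For the scale and the 8-library fit the cause was not tested. For settings other than the main one, the called share of all transcripts was not computed.

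With the replicate block, the share calls were 307 and 276, 279 and 248, and 391 and 352, and the level calls 793 and 1016, 867 and 661, and 825 and 1183. The block changed no count for the machinery genes. Under it the calls of NCBP2-205, EIF4A2-203, ASAH1-242 and SMAD4-213 were lost (adjusted p = 0.0510 to 0.0735). RIPK2-204 (adjusted p = 0.0173) and JUN-202 (adjusted p = 0.0265) were called in SKOV-3 against T1074. The correlation of deviations between libraries of the same number ran from -0.0502 to 0.0877 for shares and from -0.110 to 0.0892 for gene log2 CPM, so the numbers did not pair the libraries. With 1 library left out, machinery genes higher in SKOV-3 than in T1074 numbered 7 to 12, the 12 without T1074 replicate 3. Of the repeats for single named transcripts, 1189 kept their side of the threshold, 64 lost and 4 gained a call, and none changed sign. Each named transcript was repeated only in the pair of lines with its smallest p in the main fit. Its calls in other pairs were not repeated. Leaving out short transcripts was chosen after seeing the data, as was computing shares from unrounded values. Shares of low genes rest on few reads, and TPM steps of 0.01 limit them further.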
